A study of Mus musculus with 4 samples.

Results

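The histone deacetylase genes Hdac1, Hdac2, Hdac3, Hdac4, Hdac5, Hdac6, Hdac7, Hdac8, Hdac9 and Hdac10 were examined for accessible chromatin in the embryonic limb. A peak belonged to a gene if it overlapped the gene body or the 5 kb on either side (mm10, GENCODE M21). These windows of 10 of the 21938 protein-coding genes held 60 of the 44692 regions that the 4 peak lists gave after overlapping peaks were merged. ATAC-seq, an assay in which the transposase Tn5 inserts sequencing adapters into open DNA, was applied to mouse posterior forelimb buds at E10.5 (35 somites). The WT group was 2 wild type embryos and the Shh-/- group was 2 embryos homozygous for a null allele of Shh, all on the Swiss Webster background. Each library came from the posterior fractions of 1 embryo's pair of forelimb buds, with 5000 cells and 18 cycles of PCR. The null allele removes the ligand from the whole embryo and not from the limb alone, so the mutant fraction is the same dissected territory but has developed without SHH. The comparison asked whether chromatin at genes for candidate partners of GLI repression differs with and without HH.

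Histone deacetylases (HDACs) remove acetyl groups from lysines of histones and other proteins, and deacetylated histones are a mark of inactive enhancers and promoters. HDAC1 and HDAC2 are the catalytic subunits of the SIN3, NuRD and CoREST corepressor complexes, HDAC3 is that of NCoR/SMRT, and HDAC8 acts outside these complexes. The class IIa enzymes HDAC4, HDAC5, HDAC7 and HDAC9 have weak catalytic activity, shuttle between nucleus and cytoplasm and bind MEF2 factors, while the class IIb enzymes HDAC6 and HDAC10 act largely in the cytoplasm. In the absence of HH ligand, GLI3 is processed to a repressor, and deacetylases are candidate partners of that repression.

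The sequences below show the extremes among the 10 genes: the promoters of Hdac4 and Hdac6, which were called in every library, the promoter of Hdac2, which was called in 3, the promoter of Hdac9, which was called in none, and the intron of Hdac9 that held its highest ranked peak. Promoters are the 250 bases before the RefSeq start site (GRCm38.p6, the assembly of mm10), for which 7 of the 10 genes had an entry. Each is written 5′ to 3′ on the strand of its gene. In the promoters, capitals mark GGGCGG (the GC box) and CCAAT on either strand. In the intron, capitals mark the 18 bases between the outermost of the 3 peak summits called there.
Hdac4 promoter, chr1:92180342-92180591, minus strand: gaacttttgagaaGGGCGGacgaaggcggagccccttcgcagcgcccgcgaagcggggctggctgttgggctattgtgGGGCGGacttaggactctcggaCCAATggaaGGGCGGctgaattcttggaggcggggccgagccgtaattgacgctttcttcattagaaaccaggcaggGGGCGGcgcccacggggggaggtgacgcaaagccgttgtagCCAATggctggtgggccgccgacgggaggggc
Hdac6 promoter, chrX:7947890-7948139, minus strand: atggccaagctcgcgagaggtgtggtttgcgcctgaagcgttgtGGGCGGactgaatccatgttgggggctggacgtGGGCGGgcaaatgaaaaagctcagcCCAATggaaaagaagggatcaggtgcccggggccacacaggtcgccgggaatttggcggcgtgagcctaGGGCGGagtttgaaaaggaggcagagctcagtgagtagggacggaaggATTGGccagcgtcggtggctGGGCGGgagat
Hdac2 promoter, chr10:36974294-36974543, plus strand: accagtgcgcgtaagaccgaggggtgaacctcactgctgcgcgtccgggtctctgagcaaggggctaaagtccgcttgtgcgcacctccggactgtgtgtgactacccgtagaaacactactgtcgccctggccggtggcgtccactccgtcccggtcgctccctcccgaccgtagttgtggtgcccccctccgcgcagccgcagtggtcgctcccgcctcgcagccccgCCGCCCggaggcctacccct
Hdac9 promoter, chr12:34528890-34529139, minus strand: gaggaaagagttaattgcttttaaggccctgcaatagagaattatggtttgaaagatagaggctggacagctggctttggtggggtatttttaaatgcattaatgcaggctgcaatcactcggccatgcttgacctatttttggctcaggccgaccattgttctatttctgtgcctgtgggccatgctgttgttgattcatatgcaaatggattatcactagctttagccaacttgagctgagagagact
Hdac9 intron, chr12:34200173-34200372, minus strand: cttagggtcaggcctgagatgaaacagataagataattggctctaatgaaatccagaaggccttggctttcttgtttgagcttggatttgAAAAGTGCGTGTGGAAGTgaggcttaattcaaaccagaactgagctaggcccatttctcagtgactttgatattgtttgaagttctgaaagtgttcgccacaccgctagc

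The Hdac4 promoter held 4 GC boxes and 2 CCAAT words, and the Hdac6 promoter also held 4 and 2. The Hdac2 promoter had 1 GC box and no CCAAT, and the Hdac9 promoter had neither. The Hdac8 promoter, also called in no library and not printed because it overlaps annotated exons, had 2 CCAAT words and no GC box. These words overlap on opposite strands in the palindrome CCAATTGG and so mark the same site. The presence of CCAAT thus did not separate called from uncalled members. Among the 32851 promoters of the RefSeq table, 32.7% held a GC box and 33.8% a CCAAT word in the same 250 bases. GC content was 65.2% in Hdac4, 61.2% in Hdac6 and 68.8% in Hdac2, against 48.4% in Hdac8 and 43.6% in Hdac9, where the median over the table was 52.4%. The Hdac9 sequence had 2 CpG dinucleotides, and that of Hdac8 had 6, whereas Hdac4 had 23, Hdac6 had 17 and Hdac2 had 27.

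The peak lists were of very unequal length, which bears on every count below. WT replicate 1 had 39080 peaks, WT replicate 2 had 11973, Shh-/- replicate 1 had 5589 and Shh-/- replicate 2 had 18459. Promoters made up 42.1% of peaks in WT replicate 1 and 63.3% to 72.3% in the other libraries. The lists hold no read counts, so the depth behind a peak is unknown, and a gene without a peak was not called rather than closed. The tissue label was checked by promoter calls at marker genes. Of 6 limb mesenchyme genes, 6, 3, 2 and 3 were called in WT replicates 1 and 2 and Shh-/- replicates 1 and 2, with Prrx1 called in all 4, Prrx2 in both WT libraries alone, and the forelimb gene Tbx5 and the posterior gene Hand2 in WT replicate 1 alone. Of 3 ectoderm and 5 blood or endothelial genes, Epcam was called in Shh-/- replicate 2 and Tal1 in WT replicate 1, and no others. The hindlimb gene Pitx1 was called in WT replicate 1 and Tbx4 in WT replicate 1 and Shh-/- replicate 2. The muscle progenitor genes Pax3 and Lbx1 were called in WT replicate 1 and Shh-/- replicate 2, and Lbx1 also in WT replicate 2. Their part in the results below was not tested.

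Promoters of 8 of the 10 deacetylase genes were called in at least 1 library, where a promoter peak is one that overlaps the window from 2 kb before to 1 kb after a transcription start site (TSS). Start sites were those of the basic set of GENCODE transcripts. WT replicate 1 had 8 of the 10 (60.4% of all protein-coding genes were called in that library), WT replicate 2 had 5 (39.2% of all genes), Shh-/- replicate 1 had 2 (17.3%) and Shh-/- replicate 2 had 8 (51.3%). The counts were above or near these background shares in every library, and the fewest calls were in the shortest list. Hdac4 and Hdac6 were called in all 4 libraries, as were 16.1% of all genes. Hdac1, Hdac2 and Hdac5 were called in all libraries but Shh-/- replicate 1 (21.1% of all genes), and Hdac3, Hdac7 and Hdac10 only in the longest lists of each genotype, WT replicate 1 and Shh-/- replicate 2 (11.8%). Hdac8 and Hdac9 had no promoter peak in any library with this basic set, as did 37.9% of all genes. With all GENCODE transcripts, 9 members were called in WT replicate 1, and the counts of the other libraries did not change. The nearest peak to Hdac8 in WT replicate 1 was 32.3 kb away, so the added member was Hdac9. No deacetylase gene was called in both libraries of one genotype and neither of the other. The share of all genes was 1.53% for calls in both WT and no Shh-/- library and 0.00456% for the reverse.

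When the lists were limited to the 5589 peaks of highest score (equal list size), Hdac1, Hdac2, Hdac4, Hdac5 and Hdac6 were called in WT replicate 1 and the same 5 genes in Shh-/- replicate 2. The Hdac2 peak of WT replicate 1 had the score at that limit, 209, which 218 peaks shared. The background was 25.5% of all genes in the first and 25.2% in the second. WT replicate 2 kept 3, Hdac1, Hdac4 and Hdac6 (25.4% of all genes), and Shh-/- replicate 1, whose list is already of this size, had Hdac4 and Hdac6 (17.3%). At equal size, WT replicate 1 and Shh-/- replicate 2 therefore had identical members called and the replicates within each genotype did not.

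**Figure D1:**
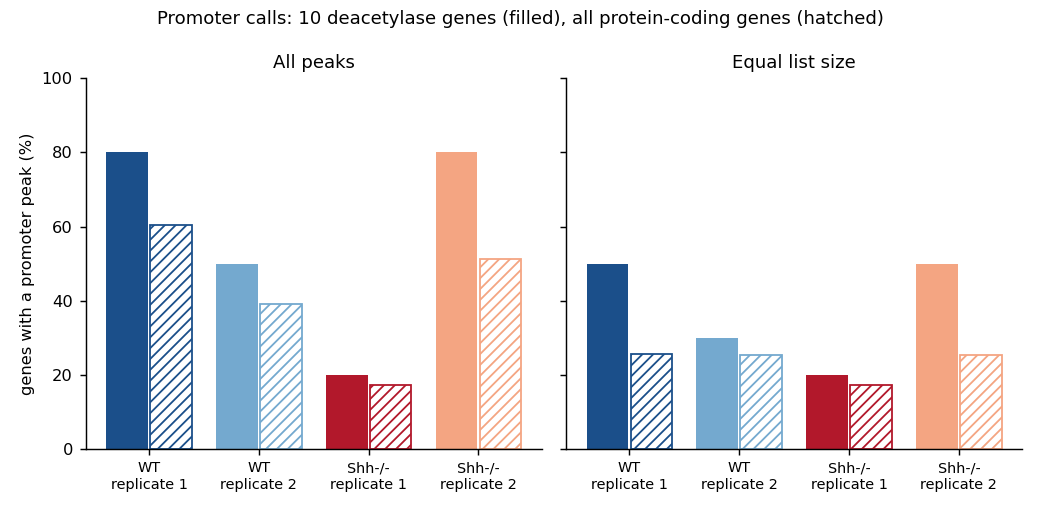
Percentage of genes with a promoter peak in each library, for the 10 deacetylase genes (filled bars) and all 21938 protein-coding genes (hatched bars), with all peaks on the left and each list limited to 5589 peaks on the right. The filled bars reach 80% in WT replicate 1 and Shh-/- replicate 2 with all peaks and stand at 20% in Shh-/- replicate 1 in both panels.

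Hdac4, which encodes a class IIa enzyme that restrains chondrocyte hypertrophy, had the highest ranked promoter peak of the 10 genes in every library. Its peak was number 289 of 39080 by score in WT replicate 1, 280 of 11973 in WT replicate 2, 414 of 5589 in Shh-/- replicate 1 and 93 of 18459 in Shh-/- replicate 2. Peaks were ranked by their score, which by the format of the peak caller is 10 times the highest −log10 q-value within the peak and depends on depth. It was therefore compared only within a list. Peaks of equal score were ordered by position, so their numbers do not order them by score. The peaks extended over chr1:92180087-92181163, chr1:92179785-92181113, chr1:92180221-92180867 and chr1:92179381-92181146 in the same order. All 4 summits fell from 145 to 186 bp upstream of the start of transcript Hdac4-202, inside the promoter sequence printed above. No peak was called at the start of Hdac4-201, the transcript chosen as the main one of the gene, which lies downstream at 92148393. Among genes with a promoter call, Hdac4 ranked at 2.30% and 3.21% from the top in WT replicates 1 and 2, and at 11.5% and 0.809% in Shh-/- replicates 1 and 2. The Shh-/- replicates thus lay on both sides of the WT pair.

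Hdac6, on the X chromosome, encodes a cytoplasmic class IIb enzyme that deacetylates tubulin. Its promoter peak was number 1892 and 2341 in WT replicates 1 and 2, and number 1160 and 2170 in Shh-/- replicates 1 and 2. Its extents were chrX:7947574-7948441, chrX:7947802-7948228, chrX:7947829-7948123 and chrX:7947651-7948227, with summits from 45 to 112 bp upstream of the TSS. These were the only peaks in the window of Hdac6.

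For these 2 genes, called in all libraries, the genotypes could be compared by rank among all protein-coding genes, where a lower number is a higher score. Hdac4 ranked 305 and 276 in the WT libraries and 436 and 91 in the Shh-/- libraries. The means were 290.5 ± 20.5 in WT and 263.5 ± 244 in Shh-/- (SD, n = 2 each). The difference of -27 ranks was within the spread of the replicates (exact permutation test, two-sided, p = 1, adjusted p = 1 over the 2 genes tested). Hdac6 ranked 2128 and 2566 in WT against 1112 and 2370 in Shh-/-, with means of 2347 ± 310 and 1741 ± 889.5 (SD, n = 2 each). This difference of -606 ranks was also within the spread (exact permutation test, p = 0.667, adjusted p = 1). Among genes with a promoter call, Hdac6 ranked at 16.1% and 29.8% from the top in WT replicates 1 and 2. It ranked at 29.4% and 21.1% in Shh-/- replicates 1 and 2, both inside the WT range, so the direction depended on the measure. With 2 libraries against 2 the smallest p-value these tests allow is 0.333, so no difference could have passed 0.05.

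**Figure D2:**
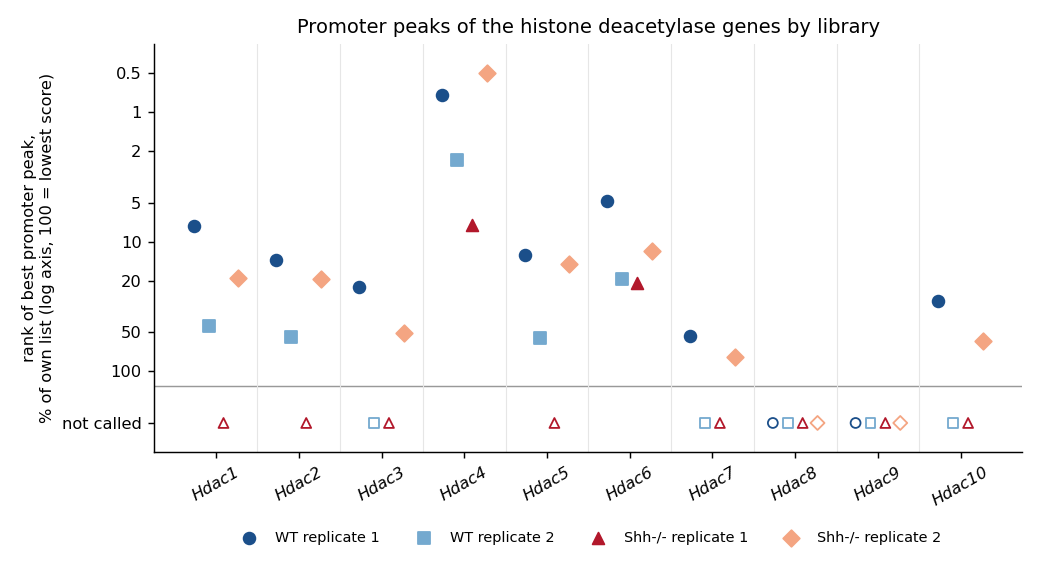
Rank of the best promoter peak of each gene as a percentage of its own list (vertical log axis, highest scores at the top), with a marker for each library and open markers below the line where no promoter peak was called. Hdac4 lies at 7.41% or higher up in all 4 libraries, Hdac7 lies at 53.8% and 77.2% where called, and the open triangles of Shh-/- replicate 1 appear for all genes except Hdac4 and Hdac6.

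The class I genes Hdac1 and Hdac2 encode closely related enzymes that occupy the same corepressor complexes, and their promoters were called in the same 3 libraries. The Hdac1 peak was number 2939 in WT replicate 1 (chr4:129542340-129543155), 5334 in WT replicate 2 (chr4:129542587-129542858) and 3514 in Shh-/- replicate 2 (chr4:129542098-129543107). Its summits lay from 74 bp upstream to 9 bp downstream of the TSS. The Hdac2 peak was number 5385 in WT replicate 1 (chr10:36973930-36975068), 6531 in WT replicate 2 (chr10:36974272-36975042) and 3590 in Shh-/- replicate 2 (chr10:36973935-36975059). Its summits lay 179 to 215 bp upstream of the TSS, within the printed sequence, and no other peak was called in its window. As shares of their lists, Hdac1 and Hdac2 stood at 7.52% and 13.8% in WT replicate 1, 44.6% and 54.5% in WT replicate 2, and 19.0% and 19.4% in Shh-/- replicate 2. In WT replicate 2 the Hdac2 peak had a score of 41, which 1053 peaks shared, so its place among those is arbitrary. By rank among all genes, Hdac1 was at 3178 and 5360 in WT and 3676 in Shh-/- replicate 2, inside the WT range, and Hdac2 was at 5443 and 6254 in WT and 3750 in Shh-/- replicate 2, outside it. In Shh-/- replicate 1 the nearest peak was 54.3 kb from Hdac1 and 137 kb from Hdac2.

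Hdac5, whose class IIa enzyme represses MEF2 targets in muscle, had the same pattern of calls. Its promoter peak was number 4926 in WT replicate 1 (chr11:102229894-102230587), 6646 in WT replicate 2 (chr11:102229921-102230202) and 2726 in Shh-/- replicate 2 (chr11:102229872-102230572). The summit lay 172 bp and 125 bp upstream of the start of Hdac5-203 in the first and last of these. In WT replicate 2 it lay nearer the start of Hdac5-202, 7 bp upstream. Each of these peaks also overlapped the promoter window of the microRNA gene Mir8101, so the peaks cannot be assigned to Hdac5 alone.

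Hdac3, Hdac7 and Hdac10 were called in WT replicate 1 and Shh-/- replicate 2, in each of these at a lower rank than the other called members. Hdac3, the deacetylase of NCoR/SMRT, had promoter peaks at chr18:37954742-37956387 (number 8701 in WT replicate 1) and chr18:37954973-37955790 (number 9305 in Shh-/- replicate 2). These lie between Hdac3 and Rell2, which is transcribed in the other direction, so the peak cannot be assigned to either gene alone. Hdac10, which acts on polyamines as well as proteins, had peaks at chr15:89127875-89129086 (number 11126) and chr15:89128177-89128695 (number 10804). Hdac7, known for its role in endothelium and thymocytes, had peaks at an internal start, that of Hdac7-202, at chr15:97831332-97831824 (number 21032) and chr15:97831220-97831813 (number 14255), both with a score of 38. That score was shared by 3725 peaks in WT replicate 1 and 1570 in Shh-/- replicate 2. A further weak peak upstream of the start of Hdac7-203, chr15:97846271-97846503, was called in WT replicate 1 alone (number 35211). None of these 3 genes was called at equal list size.

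**Figure D3:**
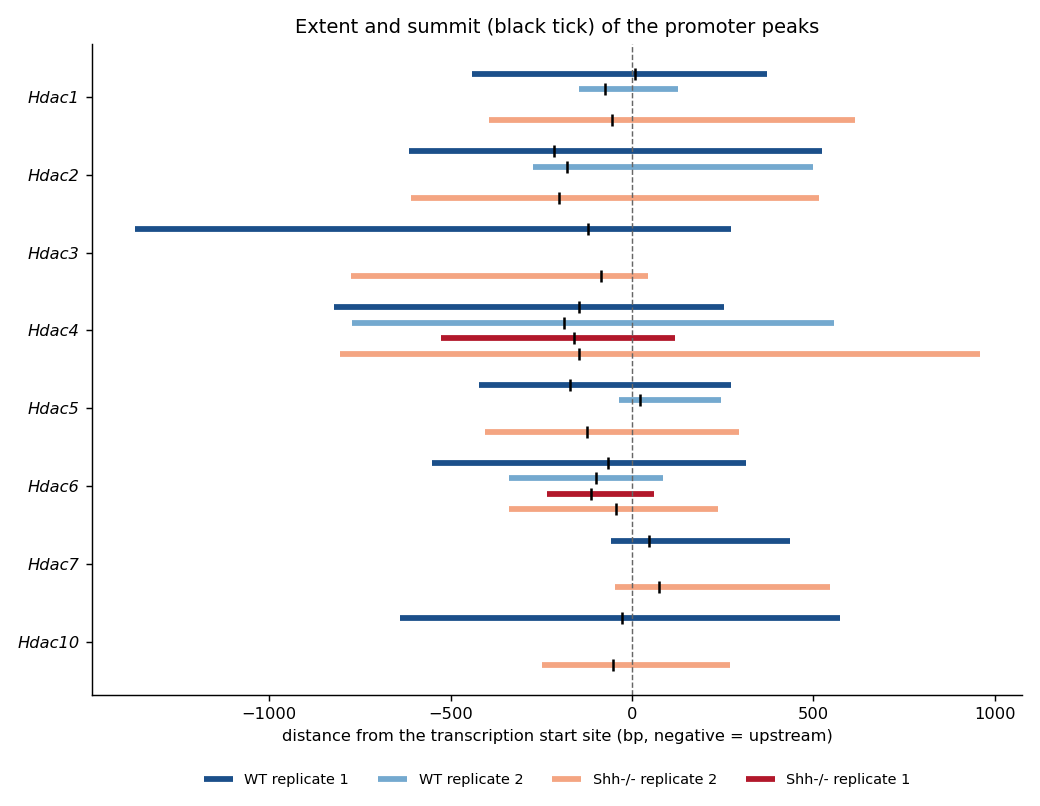
Extent of the promoter peak of each called gene relative to the TSS (horizontal axis in bp, negative values upstream), coloured by library, with black ticks at the summits. The zero point is the TSS nearest the summit of WT replicate 1. Summits of a gene span from 24 bp in Hdac10 to 195 bp in Hdac5 across libraries, with 41 bp in Hdac4 and 67 bp in Hdac6, while the widths vary from 272 bp to 1766 bp.

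Hdac8 and Hdac9 had no promoter peak with the basic set of transcripts. Hdac8, an X-linked class I gene whose enzyme deacetylates cohesin, had no peak in its whole window of 221 kb of gene and 5 kb on either side, and the nearest peaks were 32.3 kb away in WT replicate 1 and 127 to 165 kb away in the other libraries. Around the main start of each, GC content was close to the median of genes without a call. Hdac9 has 4 annotated starts in the basic set, and only that of Hdac9-204 was used here. Within 1000 bp at the TSS of the main transcript, GC content was 46.7% in Hdac8 and 45.4% in Hdac9, and the ratio of observed to expected CpG was 0.411 and 0.201. The medians were 45.9% and 0.196 over the 8270 genes called in no library, against 60.4% and 0.770 over the 3508 genes called in all 4. The CpG ratio of Hdac8 lay above the upper quartile of the genes called in no library, 0.324. Among called genes, Hdac6 had 59.6% and 0.765 and Hdac2 had 70.8% and 0.832, but Hdac4 had 47.9% and 0.123 and Hdac7 had 56% and 0.246 at this start. The best promoter peaks of Hdac4 and Hdac7 lay at other starts, where the 200 bp around the summit had a GC content of 65% and 79%.

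Counts of all peaks in the windows differed widely between libraries, as the lists themselves did. The windows held 52 and 10 peaks in WT replicates 1 and 2, against 6 and 24 in Shh-/- replicates 1 and 2. As shares of their lists these were 0.133% and 0.0835% in WT and 0.107% and 0.130% in Shh-/-. Of these peaks, 28, 1, 4 and 12 were distal intronic peaks, where distal means outside the promoter window of any gene. Intronic was judged at the summit, first in the main transcript. The means of 31 ± 29.7 peaks in WT and 15 ± 12.7 in Shh-/- (SD, n = 2 each) differed by 16, less than the replicates of a genotype differed (two-sided exact permutation test, p = 0.667). At equal list size the windows held 8, 4, 6 and 7 peaks in the same order and the difference turned to -0.5 (exact permutation test, p = 1). Without WT replicate 1 it was -5 and without WT replicate 2 it was 37, so the direction rested on the longest list.

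**Figure D4:**
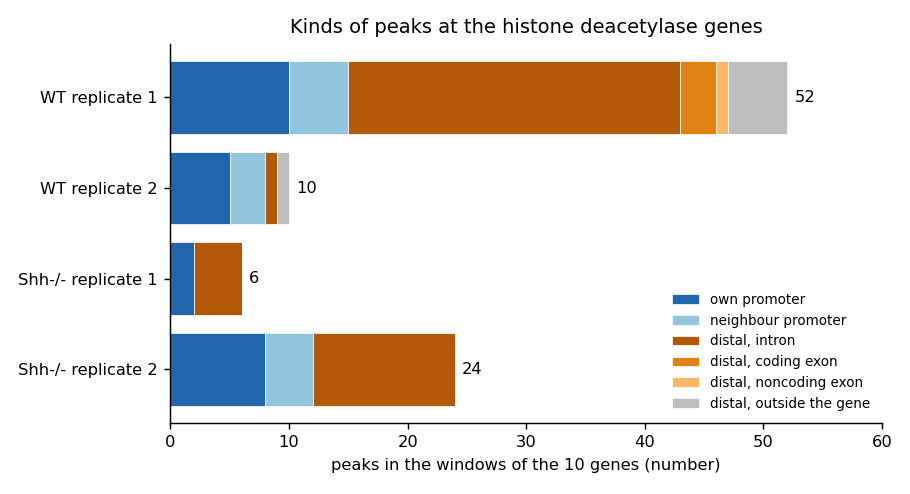
Number of peaks in the windows of the 10 genes in each library, divided by place (own promoter, promoter of a neighbouring gene, or distal in an intron, an exon or outside the gene). WT replicate 1 has 52 peaks, most of them distal intronic, and Shh-/- replicate 1 has 6.

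Across genotypes, 1 of the 60 regions was called in both WT lists and neither Shh-/- list, while the share was 2.19% of the 35660 regions in windows of all protein-coding genes. It lay in the 5 kb upstream of Hdac3, at chr18:37958531-37959045 in WT replicate 1 (score 32, number 25526) and chr18:37958481-37958738 in WT replicate 2 (score 14, number 11723). The second of these had the lowest score in its list. No region was called in both Shh-/- lists and neither WT list (0.224% of the background regions). Of the 60 regions, 41 were called in a single library (61.4% of the regions in windows of all genes), 32 of them in WT replicate 1 (50.2%).

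Distal peaks inside the gene were called in at least 2 libraries in 3 of the 10 genes, Hdac4, Hdac5 and Hdac9 (11.6% of all genes), and in at least 3 libraries in Hdac4 and Hdac9 (4.89%). Hdac4 and Hdac9 are long, and among the 998 genes of at least 200 kb these shares were 46.7% and 29%, respectively. The third long gene, Hdac8, had none. In Hdac4 the peaks were scattered. Of its 8 distal regions inside the gene, chr1:91968974-91969652 in intron 14 was called in WT replicate 1 (number 28429) and Shh-/- replicate 2 (number 15352), and the others were each called in 1 library. In Hdac7 all 8 distal peaks inside the gene came from WT replicate 1, with the best at number 15853 in coding exon 6.

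Hdac5 held a distal peak inside the gene in WT replicate 1 (chr11:102218467-102219514, number 10988) and Shh-/- replicate 2 (chr11:102218528-102219481, number 7374). Its summits lay in intron 4 of Hdac5-201. Among the distal peaks of their lists these peaks were number 2267 of 22635 and 1096 of 6621. The 200 bp around the summits, chr11:102218770-102218969, overlap annotated exons, so the site is not intronic alone. The region contains TGGGTGCTC at chr11:102218814-102218822, plus strand, which differs from the GLI consensus TGGGTGGTC by G7C (positions counted from 1 at the 5′ end of the consensus). The 200 bp around the summits of 2 of the 44 distal regions, none of the 9 own promoter regions and 1 of the 7 promoter regions of neighbouring genes held the consensus with at most 1 mismatch on either strand. The share was 4.55% of the distal regions, against 6.01% of all distal and 5.01% of all promoter regions in the lists. The remaining matches were TGGGTGTTC (G7T) in intron 15 of Hdac4, called in WT replicate 1, and TGGGTGCTC (G7C) at the promoter of Marcksl1 beside Hdac1. For the other words searched in the same 200 bp, CCAAT occurred in 5 of the 9 own promoter regions and 10 of the 44 distal regions, or 55.6% and 22.7% (26.0% and 21.8% of all promoter and distal regions). GGGCGG occurred in 6 and 5, or 66.7% and 11.4% (45.3% and 8.34%). TATAAA occurred in no own promoter region (2.87% of all promoter regions) and in 7 distal regions, or 15.9% (5.73% of all distal regions). The cAMP response element TGACGTCA was found in no own promoter region (1.92% of all promoter regions). It was found in 1 distal region, in intron 3 of Hdac5, or 2.27% (0.324% of all distal regions).

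Hdac9, a class IIa gene best known from muscle, had intronic peaks of high rank but no promoter peak with the basic set of transcripts. With all GENCODE transcripts it gained a promoter call in WT replicate 1. Its longest annotated form spans 870 kb, and its introns are known to contain enhancers of the neighbouring gene Twist1, a transcription factor of limb mesenchyme. Its window held 8 and 0 peaks in WT replicates 1 and 2, and 3 and 7 in Shh-/- replicates 1 and 2, all intronic. The highest ranked was in intron 20 of Hdac9-204, 328 kb downstream of the Hdac9 TSS and 243 kb from the TSS of Twist1. It was called at chr12:34199990-34200483 in WT replicate 1 (number 4755), chr12:34199995-34200646 in Shh-/- replicate 1 (number 270) and chr12:34199663-34200889 in Shh-/- replicate 2 (number 882). Among distal peaks alone it was number 430 of 22635, 33 of 2049 and 45 of 6621, which are 1.90%, 1.61% and 0.680% from the top. Its summits, at 34200265, 34200269 and 34200282, fall in the capitals of the intronic sequence printed above. That sequence has a GC content of 43.5% and holds 1 CCAAT word outside the capitals and no match to the GLI consensus.

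A further pair of Hdac9 regions was called in the same 3 libraries. The first was in intron 18, chr12:34219956-34220789, at number 9632 in WT replicate 1 and numbers 2183 and 6855 in Shh-/- replicates 1 and 2. The second was chr12:34637090-34637886, upstream of the main TSS in intron 3 of the longer Hdac9-210, at numbers 12819, 2785 and 10675 in the same order. Regions at chr12:34215479-34216108 and chr12:34594313-34594771 were called in WT replicate 1 and Shh-/- replicate 2. The remaining 5 regions of Hdac9 were each called in 1 library.

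In WT replicate 2 the nearest peak was 129.9 kb from Hdac9. Of the 10 regions of Hdac9, 3 were thus called in WT replicate 1 and both Shh-/- libraries, and none in WT replicate 2. Over all genes, 1197 distal regions were called in WT replicate 1 and both Shh-/- libraries, and 39.2% of them were also called in WT replicate 2, against 0 of the 3 in Hdac9. WT replicate 2 had 3312 distal peaks in all, fewer than WT replicate 1 and Shh-/- replicate 2 but more than the 2049 of Shh-/- replicate 1. The Twist1 promoter was called in the same 3 libraries as the Hdac9 regions, at number 3094 in WT replicate 1 and numbers 3617 and 4636 in Shh-/- replicates 1 and 2, and was not called in WT replicate 2. The part that the marker calls and list lengths given above had in this was not tested.

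**Figure D5:**
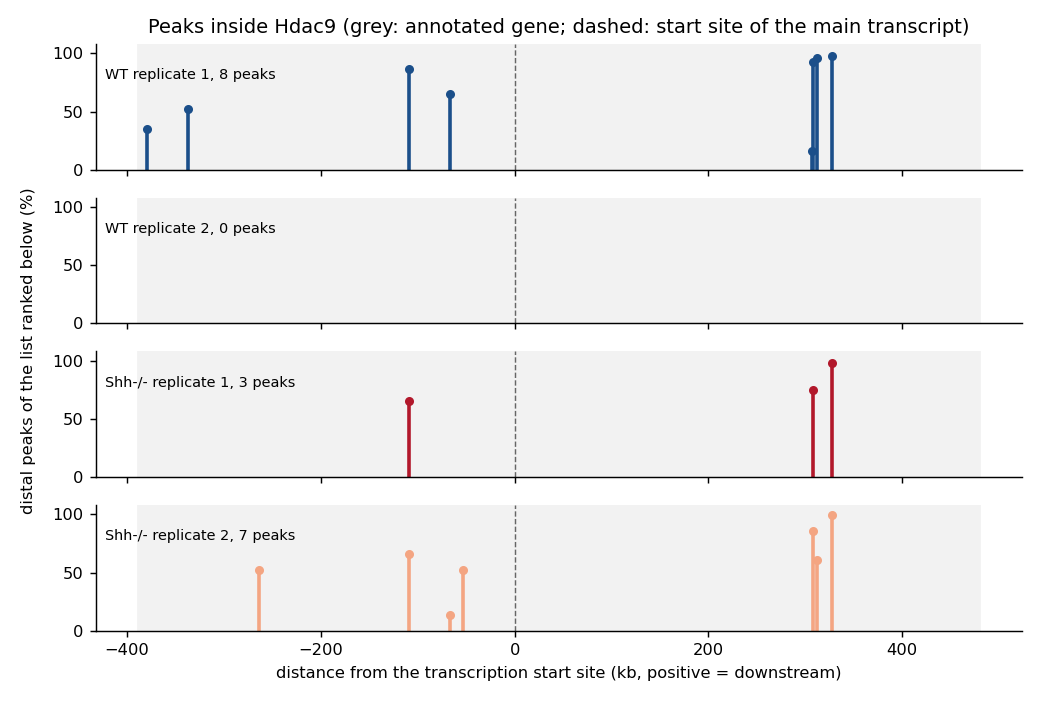
Summits of the peaks inside Hdac9 by distance from the start of Hdac9-204 in kb (horizontal axis, positive values downstream), one panel per library, with the height giving the percentage of distal peaks in that list that rank below. The grey band is the annotated gene. Lines at 328 kb reach above 98% in WT replicate 1, Shh-/- replicate 1 and Shh-/- replicate 2, and WT replicate 2 has 0 peaks.

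Several windows include promoters of neighbouring genes. The Marcksl1 promoter lies within 5 kb of the 3′ end of Hdac1 and was called in the same 3 libraries as Hdac1, at numbers 4833 and 7178 in WT replicates 1 and 2 and number 14763 in Shh-/- replicate 2. In WT replicate 1 a weaker peak there, number 26589, also overlapped the promoter of Gm12979. Diaph1, which encodes a formin, was called at the 3′ end of Hdac3 at numbers 1095, 834 and 1896 in WT replicates 1 and 2 and Shh-/- replicate 2. These were higher than any rank of Hdac3 itself. Tubgcp6, a component of the γ-tubulin ring complex, was called at the 3′ end of Hdac10 at number 7686 in WT replicate 1 and 14245 in Shh-/- replicate 2. The second peak lay inside the Hdac10 gene body, with its summit in intron 19 of Hdac10-201. Weak peaks at the promoters of Gm37048, within Hdac4, and G6pc3, beside Hdac5, were called at 86.0% or lower in their lists.

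Promoters of the genes for HDAC partners, for other deacetylases and for acetyltransferases were compared as a list of 52 genes, including Hdac11, the single class IV deacetylase. Of these, 52 and 41 were called in WT replicates 1 and 2, and 19 and 50 in Shh-/- replicates 1 and 2, or 100%, 78.8%, 36.5% and 96.2%, where all genes gave 60.4%, 39.2%, 17.3% and 51.3%. For the 10 SIN3 genes the counts were 10, 8, 6 and 10, and for the 11 NuRD genes 11, 8, 4 and 11. The 4 CoREST genes had 4, 3, 1 and 4, and the 5 NCoR/SMRT genes had 5, 4, 0 and 5. The 5 corepressors linked to GLI proteins (Ski, Skil, Atn1, Rere and Sufu) had 5, 5, 3 and 5. Among enzymes, the counts were 7, 5, 1 and 6 of 7 sirtuins and 9, 7, 4 and 8 of 9 acetyltransferases. The genes not called in Shh-/- replicate 2 were Sirt4 and Kat2b, named after their values were seen, and each was called in WT replicate 1 alone. No gene of the list was called in both libraries of one genotype and in neither of the other, and none lacked a promoter peak in every library. Hdac11 followed Hdac1, Hdac2 and Hdac5, with peaks at numbers 3396 and 8564 in WT replicates 1 and 2, number 3756 in Shh-/- replicate 2 and no call in Shh-/- replicate 1.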

How the data were processed

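The authors sequenced the ATAC-seq libraries as paired ends and ran MACS2 separately on each library, with 0.05 as the q-value cutoff and 200 bp as the window. The submitters' processing notes name mm10, Bowtie2 2.2.5 and MACS2 2.1.0. Any Tn5 shift of the reads is not given in the sources used here. The authors deposited 1 peak list per library with a position, a summit and a score, and the 3 columns that would hold fold enrichment, p-value and q-value were 0 throughout. The score was used only within its list, with ties ordered by position. Peak lists cannot be tested as counts, so the study's limma fit was not repeated.

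Peaks sharing 1 bp or more were joined into regions and annotated with GENCODE M21 (basic set), and sequence was read from GRCm38.p6, with python 3.11.15, pandas 2.3.3, scipy 1.17.1 and pysam 0.24.0. The steps were tested on simulated data. Libraries were grouped by the genotype in their titles, and each came from a separate embryo. Group means were compared by two-sided exact permutation tests, and ranks adjusted by Benjamini-Hochberg. Named genes were the 10 members, genes whose promoter held a peak of a member window and, of the partner list, genes whose calls followed genotype or that had no call, and Hdac11. Members and lists were chosen with earlier results of these data known. Alternatives were equal list size, a score of at least 50, gene bodies alone or with 20 kb, a promoter window of 500 bp, a stricter minimum overlap, leaving out each library and a replicate block.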

Additional observations from a re-analysis of the deposited data

How the results depend on the processing

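Of 93 recomputed values, 69 kept the direction of a tested difference or stayed within 1.5 times a count. Some of these were fixed by the setting and could not change. Flank width does not enter promoter calls or distal counts inside genes, and promoter width does not enter window peaks or genotype-specific regions. Shh-/- replicate 1 was already at the equal list size. The number of members with a promoter peak in all libraries was 2 throughout, except 5 without Shh-/- replicate 1, and leaving out 1 library gave 2 to 5. The WT minus Shh-/- difference in window peaks turned from 16 to -0.5 at equal list size, also with tied scores in reverse order, and shrank to 1.5 with a score of at least 50 (exact permutation test, p = 1), and leaving out 1 library gave -5 to 37. With a replicate block, pairing libraries by the number in their titles, the mean difference is 16 by construction (exact sign-flip permutation test, p = 1). The pairs differed by 46 and -14, and nothing states that the numbers mark a shared origin. The single WT-specific region became 0 at equal list size in either tie order, with a score of at least 50 or with gene bodies alone, 2 with 20 kb on either side, and 1 to 33 with 1 library left out (33 without WT replicate 2, 6 without Shh-/- replicate 2 and 3 without WT replicate 1). The count of Shh-specific regions, 0, became 0 to 6 (6 without Shh-/- replicate 1, 3 without WT replicate 1 and 1 without Shh-/- replicate 2). Members with a distal peak inside the gene in at least 2 libraries fell from 3 to 1 at equal list size, in either tie order. Members with a promoter peak at equal list size, in either tie order, were 5 in WT replicate 1, 3 in WT replicate 2 (also 3 with a score of at least 50) and 5 in Shh-/- replicate 2. With all GENCODE transcripts, members with a promoter peak in WT replicate 1 rose from 8 to 9, the addition being Hdac9. The reversed tie order and the use of all GENCODE transcripts were chosen after seeing the data. The cause of these shifts was not tested. The lists record no depth, and 2 libraries per genotype allow no p-value below 0.333.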
